A study of Mus musculus with 13 samples.

Results

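The 8 genes Piezo1, Piezo2, Yap1, Wwtr1, Tead1, Tead2, Tead3 and Tead4 were followed through 12 ESR1 ChIP-Seq peak lists by counting every peak whose summit lay in the gene body or within 10 kb on either side of it (mm10, GENCODE vM21). The genes were chosen by name as mechanosensing and YAP/TEAD genes, 8 of 21938 protein-coding genes. Together their windows held 1008 of the 686823 peaks, which merged into 289 of the 228284 regions found when overlapping peaks of all libraries were joined.

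The cells were fibroblasts in primary culture from lower abdominal muscle of Aromhum mice, which carry human aromatase, the enzyme that makes estrogen from androgen, and which develop muscle fibrosis and inguinal hernias. Every library came from this genotype, so no comparison here is with wild-type cells. The fibroblasts had been passaged and serum-starved, and each of 4 treatments had 3 libraries: vehicle, 10 nM estradiol (E2) for 1 hour, 100 nM fulvestrant, an antagonist and degrader of the estrogen receptor, and fulvestrant followed by E2 (E2 plus fulvestrant). Whether the 3 libraries came from separate animals or cultures was not stated for these lists, so a p-value below measures only the spread between libraries. Peak lists hold no expression values, and the labelled cell type could not be checked against its markers.

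PIEZO1 and PIEZO2 are ion channels of the cell membrane that open when the membrane is stretched and let calcium in. YAP1 and its paralog TAZ, which is encoded by Wwtr1, are coactivators that the kinases of the Hippo pathway keep out of the nucleus; on a stiff matrix or under tension they enter it and act through the DNA-binding proteins TEAD1 to TEAD4. In fibroblasts this route is known for its part in matrix production, and ESR1, the receptor immunoprecipitated here, is a nuclear receptor that binds DNA at estrogen response elements or through other factors.

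E2 replicate 1 and fulvestrant replicate 2 stood apart from the other libraries. In E2 replicate 1 the relative depth solved from the deposited values was 39.1% of the median library and 59.4% of the 104571 peaks lay in repeat-masked sequence, and in fulvestrant replicate 2 these values were 75.8% and 27.9% of 80754 peaks. In the other 10 libraries relative depth ran from 92.0% to 106%, the repeat-masked share from 5.57% to 7.79% and the list size from 34293 to 68971 peaks. Results that rest on the first pair of libraries are given with and without them.

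The strongest ESR1 peaks of the YAP/TEAD genes lay at their start sites, and these were present under all 4 treatments. A region within 1 kb of an annotated start was found in all 12 libraries for Piezo1, Piezo2, Yap1, Wwtr1, Tead1, Tead2 and Tead3, and for Tead4 in 9 libraries. Across all 228284 regions only 3.42% were found in all 12 libraries. Strength is given below as the rank percentile of the best peak of a region in its own library by the deposited −log10 q, with 0 the strongest peak and 100 entered where a library had no peak, and as the deposited fold enrichment at the summit. A percentile divides the rank by the length of the list, and the E2 lists (60910 to 104571 peaks) were longer than the vehicle lists (34293 to 51239), so a difference in percentile at the starts is given with the plain rank beside it.

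Tead1, on chromosome 7 at 112679318-112906807 on the plus strand, had the strongest start peak of the 8 genes. The region at chr7:112679495-112682435 had percentiles of 1.81, 1.94 and 1.37 in vehicle, 0.480, 3.67 and 0.850 in E2, 1.75, 3.39 and 4.77 in E2 plus fulvestrant and 0.440, 0.719 and 4.28 in fulvestrant. All 12 libraries thus placed it in the top 5% of their peaks and the treatments overlapped. Another annotated gene, 2310014F06Rik, starts 158 bp from the leading summit, so the peak cannot be given to Tead1 alone.

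Wwtr1, on chromosome 3 at 57455649-57575910 on the minus strand, followed with percentiles of 2.11, 7.25 and 2.56 in vehicle, 0.474, 7.73 and 3.08 in E2, 3.67, 8.64 and 4.91 in E2 plus fulvestrant and 2.21, 1.08 and 2.99 in fulvestrant at chr3:57571626-57577098. The fold enrichment there was 4.52 to 10.6 in 11 libraries and 24.2 in E2 replicate 1. Tead3, on chromosome 17 at 28331671-28350817 on the minus strand, had percentiles of 2.75, 3.28 and 2.54 in vehicle, 0.561, 2.43 and 2.04 in E2, 3.84, 8.66 and 9.49 in E2 plus fulvestrant and 5.12, 1.43 and 5.82 in fulvestrant at chr17:28347327-28352215. Every E2 percentile lay below every vehicle percentile, but the plain ranks overlapped, at 588, 1484 and 1409 in E2 and 1412, 1125 and 1009 in vehicle. The E2 plus fulvestrant libraries, with ranks of 1573, 4408 and 6286, placed the Tead3 start below all of these on both scales.

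Yap1, on chromosome 9 at 7931999-8004596 on the minus strand, showed the same weaker rank with E2 plus fulvestrant. Its start region chr9:8002404-8005546 had percentiles of 7.71, 5.62 and 4.07 in vehicle, 1.04, 8.02 and 5.61 in E2, 17.0, 12.4 and 16.3 in E2 plus fulvestrant and 4.62, 1.27 and 22.6 in fulvestrant. The E2 plus fulvestrant libraries, with plain ranks of 6977, 6325 and 10770, placed the Yap1 start below all vehicle libraries (1620 to 3950) and all E2 libraries (1088 to 4883), while vehicle and E2 overlapped.

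The promoters under these peaks are shown because 3 of the 5 genes searched in the RefSeq promoter table (GRCm38.p6) carried the TEAD motif GGAATG, the sequence the TEAD proteins themselves bind, in the 250 bases before a start. The genes with the motif were Wwtr1, Yap1 and Tead3, and Piezo1 and Tead2 had none. No entry of Piezo2, Tead1 or Tead4 was used. On both strands the motif was in 12.6% of the 32851 promoters of the table, and neither the AP-1 motif TGANTCA (6.75% of promoters) nor an estrogen response element (0.715%) was in any of the 8 promoter entries of these genes. The 12.6% is a share of entries, and some of these genes have several, so the count of genes cannot be set against it. Bases in annotated exons are left out, each sequence is written 5′ to 3′ on the strand of its gene, and capitals mark the motif. The stretches are chr3:57575911-57576160 for Wwtr1, chr9:8004597-8004829 for Yap1 and chr17:28350818-28351055 for Tead3.
Wwtr1 promoter: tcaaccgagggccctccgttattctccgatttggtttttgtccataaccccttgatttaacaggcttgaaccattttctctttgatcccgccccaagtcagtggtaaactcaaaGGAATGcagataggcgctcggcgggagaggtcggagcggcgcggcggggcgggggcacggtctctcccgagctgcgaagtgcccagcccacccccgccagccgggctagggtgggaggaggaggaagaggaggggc
Yap1 promoter: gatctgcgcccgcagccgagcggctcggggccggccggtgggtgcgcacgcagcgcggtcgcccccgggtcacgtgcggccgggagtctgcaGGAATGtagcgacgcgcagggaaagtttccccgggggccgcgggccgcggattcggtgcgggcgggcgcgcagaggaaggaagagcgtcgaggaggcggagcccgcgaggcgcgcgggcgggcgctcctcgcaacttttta
Tead3 promoter: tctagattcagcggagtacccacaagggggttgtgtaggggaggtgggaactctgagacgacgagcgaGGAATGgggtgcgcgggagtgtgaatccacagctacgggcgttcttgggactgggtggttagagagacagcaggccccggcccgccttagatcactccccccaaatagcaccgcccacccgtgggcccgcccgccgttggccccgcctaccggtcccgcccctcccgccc

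The GC content of the whole entries, 61.6% for Wwtr1, 76.4% for Yap1 and 67.6% for Tead3, was above the promoter median of 52.4%. A match is a description of these letters only. Within 100 bp of peak summits, the TEAD motif lay in the Tead3 start region in 9 libraries, in that of Wwtr1 in 6, of Piezo2 in 5 and of Yap1 in 4. The leading summits of Wwtr1 (57575519), Yap1 (8004135) and Tead3 (28350645) lay outside the stretches printed above. The matches near summits therefore need not be the motifs in capitals.

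Tead2, on chromosome 7 at 45215753-45233644 on the plus strand, and Tead4, on chromosome 6 at 128224288-128300823 on the minus strand, had weaker start peaks. At Tead2 the percentiles were 6.89, 9.69 and 34.9 in vehicle, 2.61, 15.6 and 17.9 in E2, 7.83, 34.8 and 22.8 in E2 plus fulvestrant and 7.30, 2.0 and 19.8 in fulvestrant, and the treatments overlapped. Tead4 had 2 start regions. The first, chr6:128299793-128301046, was at 31.5 and 47.3 in vehicle replicates 1 and 3, at 8.52, 19.7 and 14.9 in E2, at 46.7, 95.7 and 29.7 in E2 plus fulvestrant and at 10.7 in fulvestrant replicate 2, with no peak in the other 3 libraries. E2 libraries placed this Tead4 start above every vehicle and every E2 plus fulvestrant library, in percentile and in plain rank.

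Piezo1, on chromosome 8 at 122481698-122551329 on the minus strand, had a start region with percentiles of 19.2, 25.3 and 8.70 in vehicle, 2.49, 21.8 and 13.4 in E2, 26.1, 30.4 and 33.3 in E2 plus fulvestrant and 15.7, 2.34 and 12.1 in fulvestrant. Each E2 plus fulvestrant library placed the Piezo1 start below each vehicle library on both scales. It lay below each E2 library in percentile only, since the plain rank of 13270 in E2 replicate 2 was behind that of 10685 in E2 plus fulvestrant replicate 1.

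Piezo2, on chromosome 18 at 63010213-63387183 on the minus strand, had the weakest start peak of the 7 genes that were found in every library. Its percentiles were 40.5, 27.9 and 54.3 in vehicle, 9.90, 27.5 and 22.8 in E2, 30.0, 67.8 and 56.2 in E2 plus fulvestrant and 31.8, 6.73 and 15.9 in fulvestrant. All E2 percentiles lay below all vehicle and all E2 plus fulvestrant percentiles. The plain ranks overlapped, with 9572 in vehicle replicate 2 ahead of 10351, 16736 and 15731 in E2, so no stronger rank with E2 can be given.

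**Figure D1:**
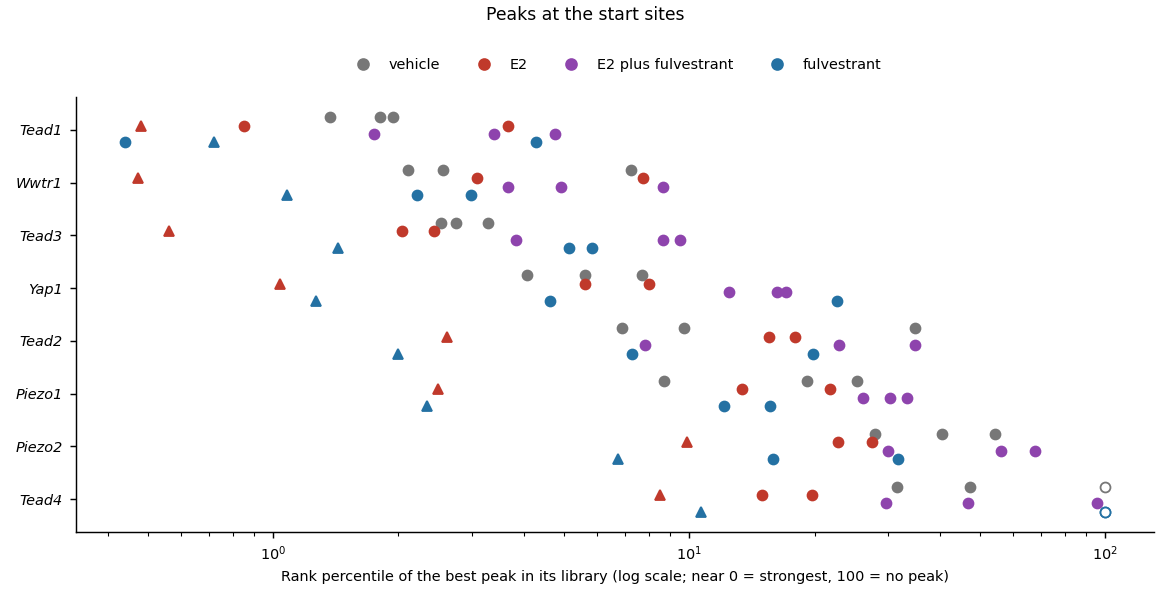
Rank percentile (log axis, left is stronger) of the best peak in the leading start region of each gene, 1 symbol for each library, coloured by treatment. Triangles are E2 replicate 1 and fulvestrant replicate 2, and open symbols at 100 are libraries with no peak. Tead1, Wwtr1 and Tead3 lie below 10 in all 12 libraries, and at Yap1 and Piezo1 the 3 E2 plus fulvestrant libraries lie to the right of all vehicle and E2 libraries.

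In order of mean percentile over 12 libraries the start peaks ran Tead1 (2.12), Wwtr1 (3.89), Tead3 (4.00), Yap1 (8.86), Tead2 (15.2), Piezo1 (17.6), Piezo2 (32.6) and Tead4 (50.4). Neighbours in this order overlapped in their libraries. A further Tead1 start region, chr7:112678102-112679390, averaged 16.4.

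The start regions were set against all start regions in the lists. Comparing E2 with E2 plus fulvestrant, 5 of the 10 start regions (Piezo1, Piezo2, Yap1, Tead3 and the first of Tead4) had stronger percentiles in every E2 library, where 17.3% of 10435 recurrent regions at protein-coding starts did, and 1 had weaker ones (the second of Tead4, background 0.297%). Between E2 and vehicle 3 were stronger (Piezo2, Tead3 and Tead4, background 13.3%) and 0 weaker (background 1.23%). Between E2 plus fulvestrant and vehicle 3 were weaker (Piezo1, Yap1 and Tead3, background 6.44%) and 1 stronger (Tead4, background 3.12%), and between fulvestrant and vehicle 0 were either (background 10.8% stronger and 0.537% weaker). By plain rank, E2 was ahead of vehicle without overlap at 1 start (Tead4, background 5.0%) and behind at 0 (6.71%), and ahead of E2 plus fulvestrant at 3 (Yap1, Tead3 and Tead4, background 8.67%) and behind at 1 (1.48%). E2 plus fulvestrant was behind vehicle at 3 (Piezo1, Yap1 and Tead3, background 11.7%) and ahead at 1 (1.88%), and fulvestrant at 0 in either direction (8.72% ahead and 1.85% behind). The mean percentile was stronger in E2 than in vehicle at 10 of the 10 starts (76.0% of all start regions), but the mean plain rank at 4 of them (50.5%), so the direction at the starts between E2 and vehicle turned with the scale. With E2 plus fulvestrant 8 of the 10 were weaker than vehicle on either scale. Over all start regions the mean was the stronger in E2 plus fulvestrant at 45.6% by percentile and at 34.6% by plain rank. These counts were chosen after the values were seen, and with 3 libraries against 3 an exact permutation test could not go below p = 0.1, so they are given as a description.

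E2 replicate 1 and fulvestrant replicate 2 carried the strongest start peaks. The median percentile over the start regions with a peak was 2.55 and 2.17 in these libraries and 5.98 to 25.7 in the other 10, and the median fold enrichment was 15.0 and 9.06 against 3.65 to 6.12. The part of this library difference in the start ranks was not tested, and without E2 replicate 1 the counts of start regions with stronger percentiles in E2 were 3 against vehicle and 6 against E2 plus fulvestrant. No share over all start regions was taken for these counts. With fewer libraries a lack of overlap is easier to reach, so the shares above do not apply to them.

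Away from the starts the windows held many intronic peaks, and of those that recurred 21 of 33 ranked higher on average in libraries given E2 (73.2% of all recurrent regions away from starts). Of the 289 regions 226 were intronic, and 171 came from a single library, of which 41 were from E2 replicate 1 alone and 38 from fulvestrant replicate 2 alone. The share found in a single library over all regions was 64.2%. In at least 5 libraries 52 regions remained, 33 of them intronic, and these were tested for a difference in mean percentile between the 6 libraries given E2 and the 6 not given it by an exact permutation test over 924 arrangements, adjusted over all 34132 recurrent regions.

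E2 replicate 1 lacked most intronic sites. It held a peak in 7 of the 33 recurrent intronic regions, where E2 replicates 2 and 3 held 28 and 33, the vehicle libraries 15 to 27, the E2 plus fulvestrant libraries 24 to 31 and the fulvestrant libraries 18 to 25. The same library held all 10 start regions.

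An intronic site of Wwtr1, 71187 bp inside the gene at chr3:57503675-57506651, had the largest shift. Its percentiles were 81.0 and 93.7 in vehicle replicates 1 and 2 with no peak in the third, 27.7 and 22.3 in E2 replicates 2 and 3 with no peak in the first, 69.2, 25.8 and 22.4 in E2 plus fulvestrant, and 57.6 in fulvestrant replicate 1 with no peak in the others. Libraries given E2 averaged 44.6 ± 32.6 (SD, n = 6) and the others 88.7 ± 16.9 (SD, n = 6). The difference of −44.2 had an exact permutation p of 0.0281 and an adjusted p of 0.527, and without E2 replicate 1 and fulvestrant replicate 2 it was −53.0 with p = 0.0159 and an adjusted p of 0.149 by the same exact permutation test. The fold enrichment at this site was 3.79 and 4.45 in the E2 libraries with a peak and 2.48 and 2.16 in vehicle.

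Yap1 had a pair of such sites about 22 to 25 kb inside the gene. The first, chr9:7982051-7983177, was at 40.7 and 38.0 in E2 replicates 2 and 3, at 30.5 and 35.4 in E2 plus fulvestrant replicates 2 and 3, and at 80.6 in vehicle replicate 1, with no peak in the other 7 libraries. The difference was −39.3 (exact permutation p = 0.0606, adjusted p = 0.551), or −47.2 without the libraries that stood apart (exact permutation p = 0.0476, adjusted p = 0.248). The site was named for this difference, and 4 of the 5 libraries with a peak were given E2, so these p-values are a description only. This holds for every site named for the largest difference in its gene. The second, chr9:7978476-7979981, was at 51.5 and 28.3 in E2 replicates 2 and 3, at 36.2 and 30.6 in E2 plus fulvestrant replicates 2 and 3 and at 67.3 in fulvestrant replicate 3. No vehicle library had a peak at this second site, which was chosen after its values were seen.

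The first Yap1 site is shown because its leading summit, in E2 plus fulvestrant replicate 2, lay 15 bp from a match to TGANTCA. A match was within 100 bp of a summit in 4 of the site's 5 libraries. TGANTCA is a loose form of the AP-1 motif, with any base in the middle, and the base here is A. The AP-1 factors are frequent partners of both TEAD proteins and ESR1. The 151 bases around the summit, chr9:7982522-7982672 on the plus strand with the motif in capitals, read as follows.
Yap1 intron: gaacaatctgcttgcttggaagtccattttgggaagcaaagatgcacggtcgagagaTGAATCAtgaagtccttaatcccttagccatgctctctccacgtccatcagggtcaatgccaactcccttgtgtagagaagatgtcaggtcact

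The motif was within 100 bp of a summit in any library in 18 of the 52 recurrent regions of the 8 genes (34.6%), where 29.7% of all recurrent regions had it, and the TEAD motif was in 30 (57.7%, against 42.8%). Neither share was tested.

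Tead3 and Tead1 had intronic sites of the same kind. At Tead3, chr17:28340124-28341240 was at 43.8 in vehicle replicate 2 with no peak in the other 2 vehicle libraries, at 40.3, 33.9 and 17.7 in E2, at 45.4, 28.2 and 26.0 in E2 plus fulvestrant and at 7.96 and 60.8 in fulvestrant replicates 2 and 3. All 6 libraries given E2 had a peak here, and 3 of the 6 others. The difference was −36.8 (exact permutation p = 0.0584, adjusted p = 0.551), and −50.7 without the libraries that stood apart (exact permutation p = 0.0159, adjusted p = 0.149). At Tead1, chr7:112826265-112827368 was at 67.9 and 25.7 in E2 replicates 2 and 3, at 34.8 and 43.3 in E2 plus fulvestrant replicates 1 and 3 and at 71.5 and 92.7 in fulvestrant replicates 1 and 3, with no vehicle peak and a difference of −32.1 (exact permutation p = 0.0736, adjusted p = 0.583).

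Piezo2 had its best peak not at the start but in an intron, 185098 bp into the gene at 63199029-63202291. Its percentiles were 15.7, 16 and 13.1 in vehicle, 5.42 and 3.78 in E2 replicates 2 and 3, 26.6, 5.6 and 6.09 in E2 plus fulvestrant and 23.0, 48.0 and 24.5 in fulvestrant. E2 replicate 1 had no peak there, and the other E2 libraries ranked the site above all vehicle and all fulvestrant libraries. The fold enrichment was 6.72 and 7.69 in those E2 libraries, 3.62 to 3.84 in vehicle, 3.18 to 5.36 in E2 plus fulvestrant and 2.63 to 3.71 in fulvestrant. Over 12 libraries the difference was 1.21 (exact permutation p = 0.972, adjusted p = 1.00) and without the libraries that stood apart −8.94 (exact permutation p = 0.135, adjusted p = 0.425). The direction also turned when any 1 vehicle library was left out, with values from −0.271 to −0.843, so no direction can be given.

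Other intronic sites ranked high under every treatment outside E2 replicate 1. At Wwtr1, chr3:57509175-57513479 was at 14.1, 12.3 and 12.4 in vehicle, 7.24 and 4.00 in E2 replicates 2 and 3, 12.7, 18.7 and 13.4 in E2 plus fulvestrant and 4.77, 10.9 and 9.17 in fulvestrant. At Tead1, chr7:112696555-112698278 was between 2.60 and 14.7 in the 11 libraries with a peak. These had the largest differences toward a weaker rank with E2 in their genes, 15.4 and 14.6 (exact permutation p = 0.416 and 0.667), which became 0.670 and −1.09 without the libraries that stood apart.

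Tead2, Piezo1 and Piezo2 had smaller shifts. Downstream of Tead2, chr7:45233548-45235755, which is 3612 bp from a start of Cd37, had a difference of −13.8 (exact permutation p = 0.160, adjusted p = 0.710) and a peak in all 12 libraries. An intronic Piezo1 site, chr8:122511589-122512571, went the other way by 21.2 (exact permutation p = 0.139, adjusted p = 0.691), or by 12.6 without fulvestrant replicate 2 and 11.5 without both libraries that stood apart (exact permutation p = 0.365), with peaks in all 3 fulvestrant libraries at 55.1, 30.4 and 56.2 and in 1 library of each other treatment at 72.0 to 97.6. A second Piezo2 intronic site, 69416 bp from the start, differed by −9.40 (exact permutation p = 0.576, adjusted p = 0.929).

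**Figure D2:**
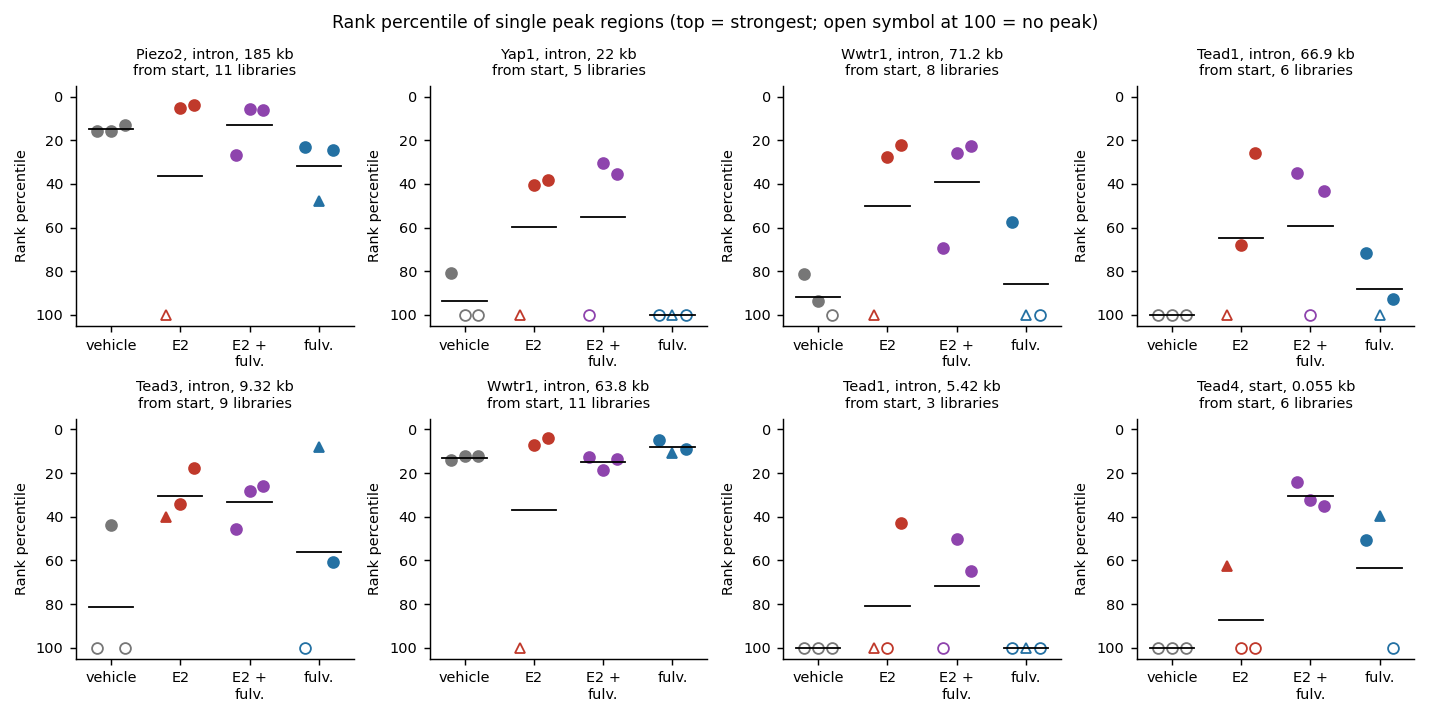
Rank percentile (vertical axis, inverted so that the top is strongest) in each library for 8 single regions by treatment, with bars at the mean of 3 libraries. Open symbols at 100 are libraries with no peak and triangles are E2 replicate 1 and fulvestrant replicate 2. At the Wwtr1 site 71.2 kb from the start, E2 replicates 2 and 3 lie at 27.7 and 22.3 and the 2 vehicle libraries with a peak at 81.0 and 93.7.

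Over the 52 recurrent regions of the 8 genes, 27 ranked higher and 25 lower with E2, with a median difference in percentile of −2.06, where 65.7% of all recurrent regions ranked higher and the median was −5.86. At an unadjusted p under 0.05, 1 region ranked higher (background 6.67%) and 0 lower (background 0.949%), and 0 passed after adjustment by the exact permutation test, over these genes as over all regions. Without the 2 libraries that stood apart, 50 regions were tested over 252 arrangements: 32 ranked higher and 18 lower with E2 (73.1% higher over all regions), 6 of them with an unadjusted p under 0.05 (background 18.0%) and 0 lower (background 1.15%). Those 6 were 2 at Yap1, 2 at Wwtr1 and 2 at Tead3, and 0 passed after adjustment by the exact permutation test (smallest adjusted p = 0.149).

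Starts and introns differed in the 10 libraries when E2 and E2 plus fulvestrant were pooled as given E2. On this pooling 26 of the 32 intronic regions and 1 of the 9 start regions had stronger mean percentiles, with median differences of −13.6 and 2.18. Among all recurrent regions 53.1% of those at protein-coding starts and 81.9% of the others ranked higher. The intronic count of these genes stood near that background and the start count below it, but neither was tested. Tead1 gave 2 of the start regions, and several start differences were small: 0.918 and 1.35 at Tead1, 1.39 at Tead3 and 2.18 at Wwtr1. By plain rank 23 of 32 intronic and 1 of 9 start regions ranked higher (72.5% and 34% over all regions). The pooled value at the starts does not describe E2 alone, since against vehicle the E2 plus fulvestrant libraries were the weaker ones. By gene, 8 of 10 regions ranked higher at Wwtr1, 11 of 16 at Tead1, 3 of 4 at Yap1, 4 of 5 at Tead3 and 3 of 4 at Piezo2, but 1 of 8 at Piezo1. The Piezo1 window also holds Ctu2, Rnf166 and Gm20388, whose peaks are counted in it.

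**Figure D3:**
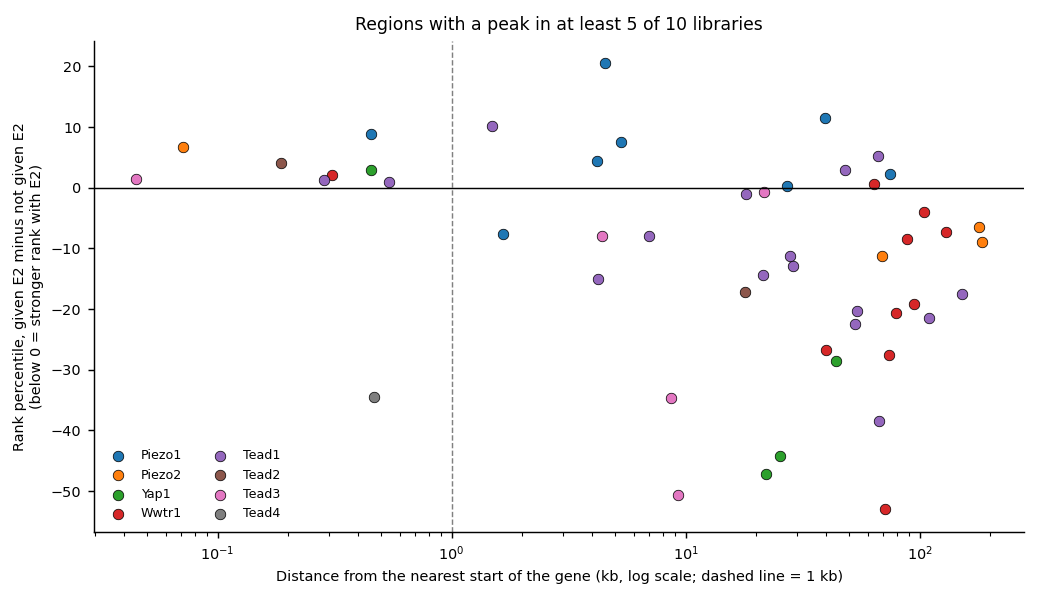
Difference in mean rank percentile between libraries given E2 and not given it (vertical axis, below 0 is a stronger rank with E2), without E2 replicate 1 and fulvestrant replicate 2, against distance from the nearest start of the gene in kb (log axis), 1 point for each of 50 regions. Of the 9 regions left of the dashed line at 1 kb, 8 lie above 0, and 26 of the 32 intronic regions lie below it.

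Presence alone gave few treatment-specific sites. No region of the 8 genes was in all 3 E2 and no vehicle library (background 0.344%), in all vehicle and no E2 library (0.0162%), in every E2 library while absent from E2 plus fulvestrant (0.207%) or the reverse (0.0732%). In fulvestrant but not vehicle there was 1 (background 0.144%), an intronic Tead1 site at chr7:112856209-112857027 with percentiles of 80.6, 23.9 and 73.9 in fulvestrant and no peak in any other library, and 0 in the reverse (0.0924%). In E2 plus fulvestrant but not vehicle there was 1 (background 0.569%), the second Tead4 start at chr6:128275238-128275919, and 0 in the reverse (0.0434%). That Tead4 site was at 24.1, 32.2 and 35.3 in E2 plus fulvestrant, at 50.7 and 39.6 in fulvestrant replicates 1 and 2 and at 62.3 in E2 replicate 1, so it was seen in 5 of the 6 libraries given fulvestrant and in 1 of the 6 not given it.

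E2 replicate 1 decided the first of these counts. Without it, 15 regions were in E2 replicates 2 and 3 and in no vehicle library, 5.19% of the 289 (background 3.25%), and 0 the other way round (background 0.0197%). All 15 were intronic: 10 at Tead1, 3 at Piezo2, 1 at Yap1 and 1 at Wwtr1. They ranked between 25.7 and 99.1 in the E2 lists, 11 also had a peak in at least 1 E2 plus fulvestrant library, and 2 were in E2 libraries only.

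An estrogen response element, searched as GGTCA, 3 bases, then TGACC with at most 1 mismatch within 100 bp of a summit, was in 0 of the 52 recurrent regions of the 8 genes, where 5.92% of all recurrent regions had it. Among the rarer regions of these genes 5 had it, and no share over all rarer regions was taken for this count. Of the 5, an intronic Tead1 site 5425 bp from a start at chr7:112753812-112754368 had it in 3 libraries, which were all those with a peak. That site was at 42.8 in E2 replicate 3 and at 50.2 and 64.6 in E2 plus fulvestrant replicates 2 and 3, with fold enrichments of 3.90, 3.44 and 3.09, and no library without E2 had a peak. It is shown with the element in capitals, 31 bp from the leading summit and with 1 mismatch, at chr7:112753888-112753968 on the plus strand.
Tead1 intron: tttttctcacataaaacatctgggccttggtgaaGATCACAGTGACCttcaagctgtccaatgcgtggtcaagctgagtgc

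The 3 peaks at this Tead1 element rested on 19, 15 and 13 fragments at the summit, the counts solved from the deposited fold and −log10 p. For comparison, the leading Tead1 start peak rested on 42 to 104 fragments.

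Counts of peaks per gene give a further view of the windows. Piezo2 had 9, 7 and 10 peaks in vehicle, 19, 11 and 17 in E2, 8, 9 and 19 in E2 plus fulvestrant and 9, 9 and 13 in fulvestrant. All E2 libraries exceeded all vehicle libraries, 15.7 ± 4.16 against 8.67 ± 1.53 (SD, n = 3 each), and no other gene of the 8 did so (background 8.80% of 19600 genes with a peak) or fell (background 0.474%). The difference of 7 had the smallest p that 3 libraries against 3 allow (exact permutation p = 0.1, adjusted p = 1), and it was −1.33 when the same number of strongest peaks was taken from each library and 1.00, with overlap, without repeat-masked peaks. In E2 replicate 1 alone 16 of the Piezo2 regions were found in no other library.

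Yap1 had 6, 2 and 3 peaks in vehicle, 5, 7 and 7 in E2, 8, 8 and 12 in E2 plus fulvestrant and 6, 7 and 7 in fulvestrant. E2 plus fulvestrant was above vehicle in every library, 9.33 ± 2.31 against 3.67 ± 2.08 (SD, n = 3 each, exact permutation p = 0.1, adjusted p = 1), the only gene of the 8 to be higher there (background 3.19%), with 0 lower (background 0.444%). It was also above E2 in every library, so that E2 was lower than E2 plus fulvestrant for 1 gene (background 0.663%) and higher for 0 (background 4.11%). Both directions turned among peaks with a −log10 q of at least 10, where the Yap1 difference was −0.333 from vehicle in place of 5.67, and 1.33 for E2 minus E2 plus fulvestrant in place of −3.

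Tead1 had 22, 15 and 15 peaks in vehicle, 10, 29 and 35 in E2, 18, 23 and 34 in E2 plus fulvestrant and 27 in each fulvestrant library. Fulvestrant exceeded vehicle in every library, 27.0 ± 0 against 17.3 ± 4.04 (SD, n = 3 each, exact permutation p = 0.1, adjusted p = 1), for this 1 gene (background 2.94%), and 0 were lower (background 0.393%). The ranges of vehicle and E2 overlapped through E2 replicate 1.

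Wwtr1 had 17, 16 and 13 peaks in vehicle, 3, 21 and 19 in E2, 17, 14 and 22 in E2 plus fulvestrant and 15, 6 and 13 in fulvestrant. The lowest values of both treatments came from E2 replicate 1 and fulvestrant replicate 2. Piezo1 had 13, 5 and 5 peaks in vehicle, 15, 6 and 16 in E2, 9, 9 and 10 in E2 plus fulvestrant and 8, 32 and 16 in fulvestrant, the 32 being fulvestrant replicate 2. Tead2 had 2 to 8, Tead3 5 to 16 and Tead4 0 to 6 peaks a library, each with its highest value in E2 replicate 1, shared at Tead4 with fulvestrant replicate 2.

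**Figure D4:**
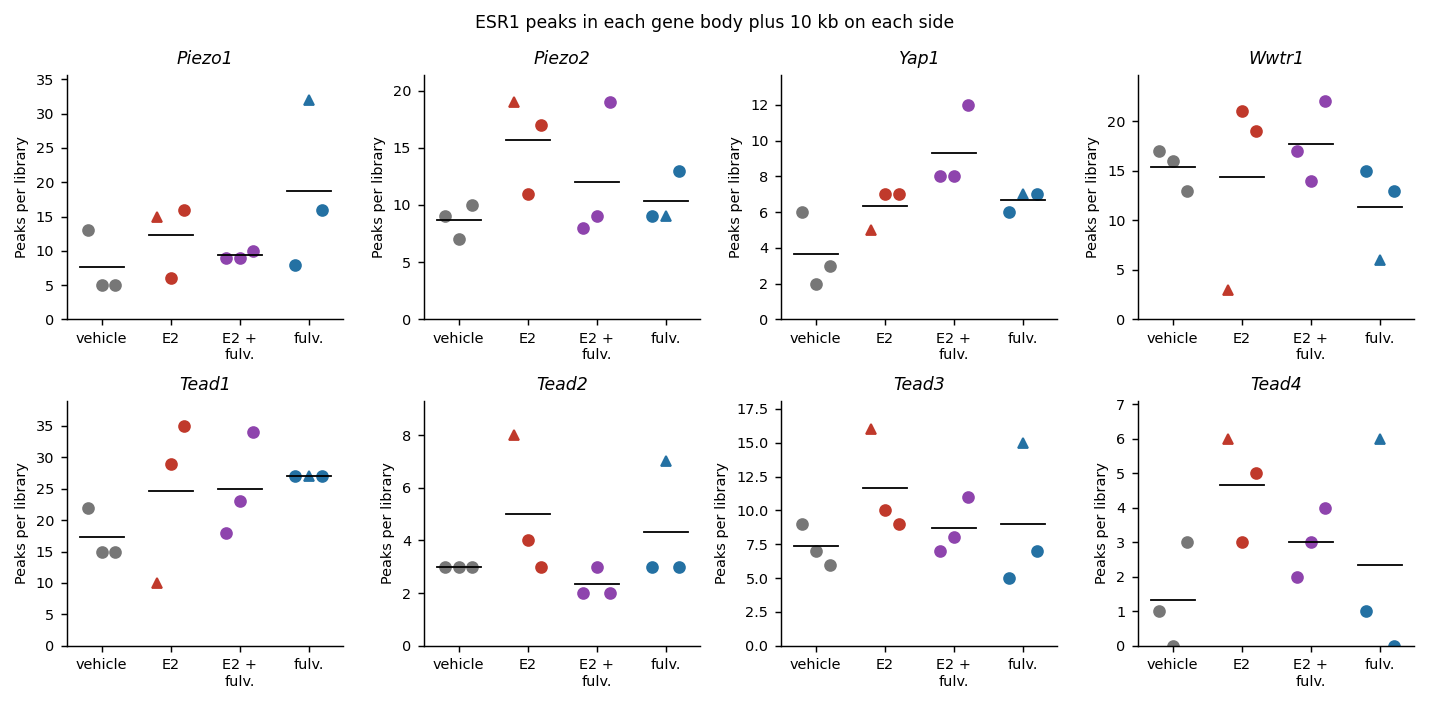
Peaks in the gene body plus 10 kb on each side, 1 symbol for each library by treatment, with bars at the mean of 3 libraries and triangles for E2 replicate 1 and fulvestrant replicate 2. Piezo2 runs from 11 to 19 in E2 and 7 to 10 in vehicle, and the triangles are the lowest points of Wwtr1 and the highest of Tead2, Tead3 and Tead4.

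Between the 6 libraries given E2 and the 6 not given it, no gene of the 8 had counts that did not overlap (background 0.143% higher and 0.0102% lower). The differences were 4.33 peaks for Piezo2 (exact permutation p = 0.108), 2.67 for Yap1 (0.0952), Wwtr1 (0.459) and Tead1 (0.595), 2 for Tead3 (0.374) and Tead4 (0.139), 0 for Tead2 and −2.33 for Piezo1 (0.732), each with an adjusted p of 1. The median over the 8 genes was 2.33, beside 0.167 over all genes tested, whose windows held a median of 2 peaks, so these differences are not on the same footing. Divided by list size the differences at Wwtr1 (−1.57), Tead1 (−3.04) and Tead3 (−0.428) turned, and with the same number of strongest peaks that at Piezo2 did too (−1.67). A test of whether E2 moved the counts differently with and without fulvestrant, added later, had its smallest exact permutation p at Tead2 (0.0758) and an adjusted p of at least 0.937 for all 8 genes.

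The windows differed in peak density. Per 100 kb of window and library, Tead3 had 23.4 peaks, Piezo1 13.4, Wwtr1 10.5, Tead2 9.68, Tead1 9.50 and Yap1 7.02, and the long Piezo2 and the Tead4 windows 2.94 each, beside a median of 3.80 over all genes with a peak. The Tead3 value includes the start of Rpl10a, a ribosomal protein gene, whose region inside the Tead3 window was in all 12 libraries.

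The other genes of the route were taken as 3 lists. Of the 18 listed Hippo pathway genes, 21 YAP/TEAD targets and 19 other mechanosensors and adhesion genes, all had peaks, 0 passed the adjusted test with E2 in either direction by the exact permutation test, and 0 had counts that did not overlap between the 6 libraries given E2 and the 6 not given it. The median differences were 0.5, 0.333 and 0.5 peaks. Between E2 and vehicle, counts were higher without overlap for 1, 2 and 2 genes of these lists (8.80% of all genes) and lower for 1, 2 and 0 (0.474%), where Amotl2, which is in the first 2 lists, is the lower gene of both. Between E2 and E2 plus fulvestrant they were higher for 1, 3 and 1 (4.11% of all genes) and lower for 0, with Ptpn14 counted in the first 2 lists.

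Among the targets, Tgfb2, which encodes a TGF-β ligand, had 2, 4 and 1 peaks in vehicle, 8, 7 and 8 in E2, 4, 4 and 5 in E2 plus fulvestrant and 1, 4 and 3 in fulvestrant. All E2 libraries lay above all others, and with E2 the mean was 6.00 ± 1.90 against 2.50 ± 1.38 (SD, n = 6 each, exact permutation p = 0.0130, adjusted p = 1). Rbms3, an RNA-binding protein gene, had 83.2 ± 26.0 peaks with E2 and 58.3 ± 6.50 without (SD, n = 6 each, exact permutation p = 0.0411, adjusted p = 1). Asap1 differed by 7.67 peaks, and in the other lists the largest differences were 3 for the Hippo kinase gene Stk3, 2.50 for Frmd6 and Vgll3, 5 for Vcl, which encodes vinculin, 4.33 for Mrtfa and 1.67 for Rock2, all with an exact permutation p of at least 0.331. All genes named in this paragraph were picked for having the largest differences in their lists, so their p-values are a description only. None of these counts was divided by list size.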

How the data were processed

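ESR1 ChIP-Seq was analysed from 12 narrowPeak lists, 3 for each of 4 treatments of Aromhum fibroblasts; the input sample was not analysed here. The authors used Trimmomatic 0.39 for trimming, Bowtie2 for alignment (mm10) and Picard 2.21.4 to remove duplicates. They called peaks in each library with MACS2 2.2.71, set to keep all reads left after that step. Versions are those of the submitters' processing notes. As deposited, each peak carried a display score (not used), a fold enrichment at the summit, a −log10 p and a −log10 q. The lists hold no counts, so the count-based testing that the study used (DESeq2) could not be run. Fragments at summits were solved as whole numbers from the deposited fold and −log10 p. For 100% of the solved peaks the solution gave back the −log10 p within 0.01.

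Peaks were given to a gene when the summit lay in its body or within 10 kb (GENCODE vM21). Overlapping peaks were merged into regions. Peak counts (19600 genes with a peak) and rank percentiles (34132 regions found in at least 5 libraries) were compared by two-sided exact permutation tests over libraries, with Benjamini-Hochberg adjustment over all genes or regions. Tested on simulated data for the comparison of 6 libraries against 6, 100% of 200 genes changed 4-fold reached an unadjusted p under 0.05 and 0% passed after adjustment. All 8 genes were named, with for each its best start region, its best-ranked region, the recurrent regions with the largest rank difference with E2 in each direction, regions in all libraries of 1 treatment and none of another, and regions with an estrogen response element in at least 3 libraries; for each gene list the 3 genes with the largest count difference were named. The genes and lists were chosen with earlier results of these data known. Python 3.11.15, NumPy 2.4.6, pandas 2.3.3, SciPy 1.17.1 and Matplotlib 3.10.9 were used. Alternatives changed the peaks kept, window, ranking, merging, region filter, libraries and replicate block.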

Additional observations from a re-analysis of the deposited data

How the results depend on the processing

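No gene count and no region rank of the 8 genes passed the adjusted test under any alternative run. Absence from a list means only that no peak was called at the depth of that library. Counts of genes or regions whose treatments did not overlap were small and moved with most settings, and the cause was not tested. Except where given above, no share over all genes or regions was taken under the alternatives, so their counts do not set these genes apart. In what follows, for each comparison, the first value is the one reported above.

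For peak counts, the genes higher in E2 than vehicle went from 1 to 4 with q at most 0.05, 3 with −log10 q of at least 10, 4 with 50 kb on each side, 4 without E2 replicate 1 and fulvestrant replicate 2, and 0 without repeat-masked peaks or when divided by list size (1 to 4 leaving out 1 library). Lower went from 0 to 1 with the same number of strongest peaks. E2 above E2 plus fulvestrant went from 0 to 1 (q at most 0.05), 3 (−log10 q of at least 10) and 1 (50 kb), or 0 to 2 leaving out 1 library, and below it from 1 to 0 with either q limit, no flank or 50 kb. Fulvestrant above vehicle went from 1 to 2 with either q limit and 0 with the strongest peaks or list size (1 to 3 leaving out 1 library; lower, 0 to 1). E2 plus fulvestrant above vehicle went from 1 to 2 with q at most 0.05 or list size and 0 with −log10 q of at least 10 (1 to 3 leaving out 1 library; lower, 0 to 1).

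For presence, the rule of at least 2 of 3 libraries gave 18 and 1 regions (E2 only, vehicle only), 9 and 3 (E2, E2 plus fulvestrant), 9 and 2 (fulvestrant, vehicle) and 9 and 1 (E2 plus fulvestrant, vehicle). The share of all regions under this rule was not taken, and every E2 list was longer than every vehicle list. Without the pair of libraries that stood apart the counts by presence in all and none were 15 for E2 over vehicle, 7 and 1 for E2 and E2 plus fulvestrant and 5 for fulvestrant over vehicle. With q at most 0.05 they were 1, 2 and 2 for E2, fulvestrant and E2 plus fulvestrant over vehicle, and with −log10 q of at least 10 they were 3, 2 and 0, with 3 for E2 over E2 plus fulvestrant. Leaving out 1 library gave 0 to 15 (15 without E2 replicate 1) and 0 to 1, 0 to 7 and 0 to 3, 1 to 5 and 0 to 2, and 1 to 6 and 0 to 1.

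For start regions, E2 over vehicle went from 3 to 5 with −log10 q of at least 10 and 1 ranked by fold or by plain rank, E2 over E2 plus fulvestrant from 5 to 3 by fold or by plain rank, and the region weaker in E2 from 1 to 0 with −log10 q of at least 10. With that limit fulvestrant over vehicle went from 0 to 2, and E2 plus fulvestrant from 1 to 0 stronger and 3 to 1 weaker. Without the libraries that stood apart 1 was weaker in fulvestrant. Leaving out 1 library gave 0 to 2 stronger and 0 to 1 weaker in fulvestrant and 3 to 5 weaker in E2 plus fulvestrant. Regions ranked higher with E2 at an unadjusted p under 0.05 went from 1 to 6 without the libraries that stood apart, and to 0 with −log10 q of at least 10 or by absolute rank (0 to 5 leaving out 1 library; lower, 0 to 1).

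Not every same-numbered pair of libraries deviated together (correlations of −0.461 to 0.327, 7 of 18 over 0.1, against 6 of 36 pairs of different number), so the numbers were not taken as pairs. Among the replicate 3 libraries all 6 pairs were positive (0.0562 to 0.327, 5 over 0.1). With the replicate block, 2 regions had an unadjusted p under 0.05 in place of 1, the Piezo2 count difference of 4.33 had p = 0.0556 by exact permutation and no adjusted call changed.

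Directions turned as follows. With −log10 q of at least 10, Yap1 counts became 1.33 (E2 minus E2 plus fulvestrant) and −0.333 (E2 plus fulvestrant minus vehicle), Piezo1 1 with E2, and rank differences −6.73 at the Piezo1 start, −8.84 and −4.87 at the high-ranking Wwtr1 and Tead1 introns and −0.195 at the Tead1 start. Piezo1 was 1.43 without fulvestrant replicate 2 (−3.97 to 1.43 leaving out 1 library) and 0.600 without both libraries. With the strongest peaks, Piezo2 was −1.33 (E2 minus vehicle) and −1.67, Wwtr1 −1.33, Tead1 −2.50 and Tead3 −0.667 with E2, and divided by list size Piezo2 was −0.429 (E2 minus vehicle), Wwtr1 −1.57, Tead1 −3.04 and Tead3 −0.428. The Piezo2 intron was −0.331, −0.271 and −0.843 without vehicle replicates 1, 2 and 3, −13.9 without E2 replicate 1 (−13.9 to 6.14 leaving out 1 library), −8.94 without both libraries, −1.52 with q at most 0.05 and −3.52 ranked by fold. The Tead1 intron was −1.08 without E2 replicate 1 and −1.09 without both. Without E2 plus fulvestrant replicate 2 the Piezo2 and Tead2 starts were −0.247 and −0.077 (−0.247 to 11.3 and −0.077 to 7.79 leaving out 1 library).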
